A study of Mus musculus with 5 samples.

Results

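Transcripts of 10 digestive enzyme genes of pancreatic acinar cells were followed through single-cell libraries of mouse islets. The genes were Prss2, Try4, Ctrb1, Cela1, Cela2a, Cela3b, Cpa1, Cpb1, Pnlip and Amy2a5, chosen by name and found in the tables of all 5 libraries, where 6627 genes were shared. They were described in cells where they outweighed every hormone, in cells where they summed to at least 2% of the transcripts, and in cells led by an islet hormone. Across 4687 cells they gave 1904 unique molecular identifiers (UMIs, the tags that mark single captured transcripts), and 7 cells held 1439 of these.

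Acinar cells form the exocrine bulk of the pancreas and surround the islets, so that an islet preparation must be separated from them. They store proteases as inactive zymogens in granules beside active lipase and amylase. Trypsin, once activated in the gut, activates the other proteases. Transcription of many of these genes depends on the PTF1 complex, which binds an E-box (CANNTG) together with a second box (TTTCCC), and islet hormone cells are not known for making the enzymes.

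The study set islets of postpartum and of pregnant mice against those of non-pregnant females. All libraries came from isolated and dissociated pancreatic islets of C57BL/6 mice with no genetic change given, and viable islet cells went through inDrop, which tags the polyA RNA of each cell in a droplet. There were 2 postpartum libraries, 2 pregnant libraries and 1 non-pregnant library. Days of pregnancy or after birth are not given in the labels used here, and nothing says that the libraries came from separate animals, so p-values measure only the spread between these libraries.

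The libraries differed in size and depth, and 1 pregnant library stood apart. Postpartum libraries 1 and 2 held 557 and 1126 cells with medians of 236 and 572.5 UMIs per cell. Pregnant libraries 1 and 2 held 1993 and 164 cells with medians of 539 and 89 UMIs, and the non-pregnant library held 847 cells with a median of 2553 UMIs. Pregnant library 2 had 16306 UMIs in all and 1193 detected genes, and whether each of its counts is 1 molecule is not known. Cells carried no barcodes in the tables used here, so barcodes shared between libraries could not be counted. The non-pregnant table listed 40930 features and each of the other 4 listed 6695, so group and table cannot be told apart in any difference from the non-pregnant library.

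The 10 genes lie on 6 chromosomes of the mouse genome build GRCm38, each protein coding. The trypsinogen genes Prss2 (chr6:41521787-41525079, 5 exons) and Try4 (chr6:41302269-41305532, 5 exons) lie on the plus strand of chromosome 6, as does the carboxypeptidase gene Cpa1 (chr6:30639218-30645363, 10 exons). Ctrb1 (chr8:111686519-111691010, 7 exons), Cela1 (chr15:100674421-100687921, 8 exons), Cela2a (chr4:141814962-141826160, 8 exons) and Cela3b (chr4:137420999-137430540, 8 exons) lie on minus strands. Cpb1 (chr3:20248264-20275733, 11 exons) and Amy2a5 (chr3:113247178-113258837, 10 exons) lie on the minus strand of chromosome 3, and Pnlip (chr19:58652498-58681788, 13 exons) on the plus strand of chromosome 19.

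Some of these genes have close copies, and their counts are uncertain between the copies. Of the 351 windows of 50 bases in the last 400 bases of the transcript, Cela2a shared 261 (74.4%) with another gene, Ctrc. Try4 shared 168 windows (47.9%), most often with Try5 and Try10, and Cela3b shared 80 (22.8%) with Cela3a. Prss2 shared 33 windows (9.40%) and Amy2a5 shared 11 (3.13%) with neighbouring amylase copies, while Ctrb1, Cela1, Cpa1, Cpb1 and Pnlip shared none.

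The promoters of 4 members that led the enzyme transcripts in at least 1 library or class are shown because the members are transcribed together in acinar cells. Each run is the 250 bases before the RefSeq gene start on GRCm38.p6, 5′ to 3′ on the gene's own strand, which is the minus strand in all 4. Capitals mark CANNTG and TTTCCC on either strand (GGGAAA is the reverse complement of TTTCCC), and no marked boxes overlapped. Positions are chr8:111691011-111691260 for Ctrb1, chr15:100687921-100688170 for Cela1, chr4:141826006-141826255 for Cela2a and chr3:113258700-113258949 for Amy2a5.
Ctrb1: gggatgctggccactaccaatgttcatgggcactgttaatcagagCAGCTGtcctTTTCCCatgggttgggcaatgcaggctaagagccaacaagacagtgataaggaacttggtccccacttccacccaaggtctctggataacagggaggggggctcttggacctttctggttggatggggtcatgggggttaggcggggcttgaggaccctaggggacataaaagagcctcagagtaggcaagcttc
Cela1: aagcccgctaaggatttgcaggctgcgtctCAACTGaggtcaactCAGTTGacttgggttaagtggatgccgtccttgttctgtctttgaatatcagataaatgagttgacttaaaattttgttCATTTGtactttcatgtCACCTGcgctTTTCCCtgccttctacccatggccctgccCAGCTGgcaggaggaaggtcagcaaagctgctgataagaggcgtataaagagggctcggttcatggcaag
Cela2a: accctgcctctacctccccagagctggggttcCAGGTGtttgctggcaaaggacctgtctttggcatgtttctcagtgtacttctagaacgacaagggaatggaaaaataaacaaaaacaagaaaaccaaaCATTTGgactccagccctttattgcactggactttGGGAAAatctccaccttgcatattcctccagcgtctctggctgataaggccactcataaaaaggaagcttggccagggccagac
Amy2a5: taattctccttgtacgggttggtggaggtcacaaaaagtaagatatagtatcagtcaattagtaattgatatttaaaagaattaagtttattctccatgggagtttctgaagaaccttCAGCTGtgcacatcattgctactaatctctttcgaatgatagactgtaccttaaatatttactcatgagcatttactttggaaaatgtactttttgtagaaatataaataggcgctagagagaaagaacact
CANNTG was found in 9 of the 10 members' promoters, against 66.0% of 27025 mouse promoters of this length. TTTCCC was found in 5 of 10, against 21.9% of all promoters. Both boxes started within 25 bases of each other in 3 of 10 (Ctrb1 and Cela1 at 10 bases, Cpa1 at 19), against 3.99% of all promoters. TATAAA was found in 5 of 10 members and in 13.0% of all promoters. A match describes these letters only.

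Enzyme transcripts were concentrated in a handful of cells. Each cell was put in a class by the largest of 5 sums: Ins1 with Ins2 (insulin), Gcg (glucagon), Sst (somatostatin), Ppy (pancreatic polypeptide) and the 10 enzymes. The enzymes were the largest sum in 2 of 557 and 2 of 1126 postpartum cells, in 0 of 1993 and 2 of 164 pregnant cells, and in 1 of 847 non-pregnant cells. Such cells are called enzyme-led here. The 0 of 1993 cells in pregnant library 1 allows a share of up to 0.151%.

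In the 7 enzyme-led cells the 10 genes made up between 33.6% and 78.0% of all UMIs. The postpartum library 1 cells held 131 enzyme UMIs of 195 (67.2%) and 107 of 190 (56.3%). Those of postpartum library 2 held 176 of 314 (56.1%) and 203 of 376 (54.0%). Cells of pregnant library 2 held 138 of 177 (78.0%) and 72 of 103 (69.9%), and the non-pregnant cell held 612 of 1823 (33.6%). The lowest share thus belonged to the deepest cell, and its table lists further amylase and enzyme features that the other tables do not. Insulin transcripts were at 0 to 4 UMIs in the 6 cells of the pregnant and postpartum libraries and at 17 UMIs in the non-pregnant cell, or at most 1.27% of any of the 7 cells.

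**Figure D1:**
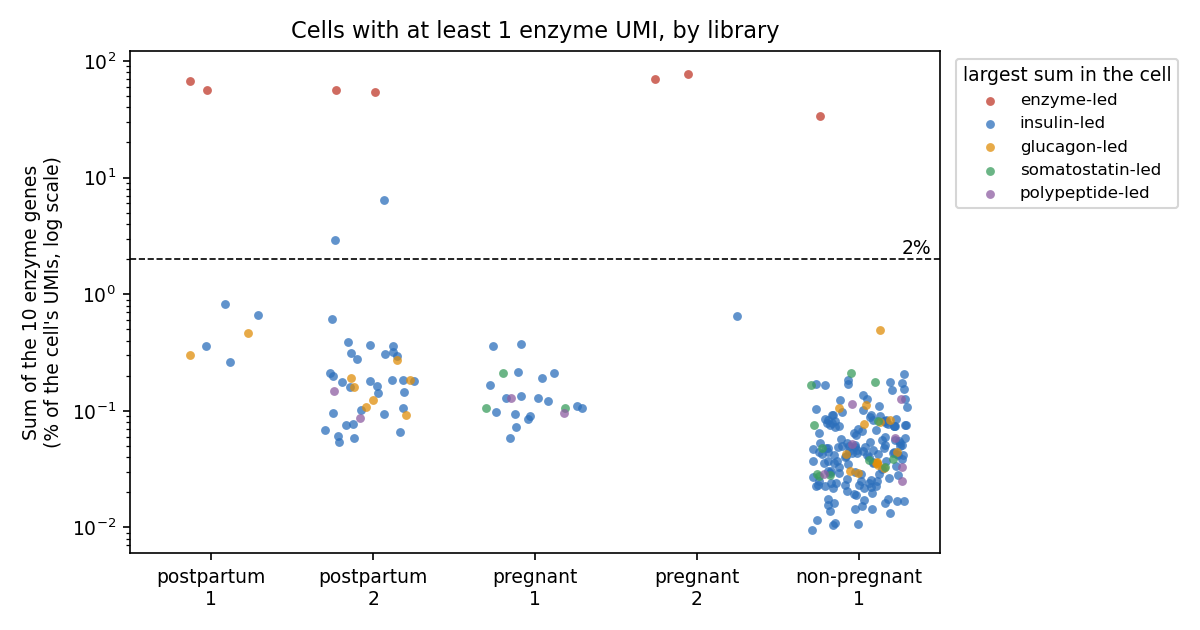
Share of each cell's UMIs that came from the 10 enzyme genes (percent, log scale), for every cell with at least 1 such UMI, by library and coloured by the largest sum in the cell; horizontal scatter within a library has no meaning. The 7 enzyme-led cells lie between 33.6% and 78.0%, and every cell outside these and 2 insulin-led cells of postpartum library 2 lies under 1%. Those 2 cells lie above the dashed line at 2%, at 6.42% and 2.92%.

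The 2% threshold added only 2 cells to the 7. Both were insulin-led cells of postpartum library 2. One held 28 enzyme UMIs of 436 (6.42%) from 7 of the genes beside 47.9% insulin, and the other held 10 of 343 (2.92%) from 5 genes beside 20.4% insulin. The highest cell below the threshold, in postpartum library 1, stood at 0.822% with 3 Amy2a5 UMIs of 365. Scrublet, a caller of droplets that hold 2 cells, marked 10 of 4687 cells (0.213%), none of them enzyme-led or at 2% or more. At so low a rate the caller cannot be taken to have worked, and whether the 2 insulin-led cells were doublets was not tested.

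Cells at 2% or more were rare in every group, and the libraries' intervals overlapped. Their share was 0.359% (95% exact Clopper-Pearson interval 0.0435 to 1.29) and 0.355% (0.0969 to 0.907) in postpartum libraries 1 and 2. It was 0% and 1.22% (0.148 to 4.34) in pregnant libraries 1 and 2, and 0.118% (0.00299 to 0.656) in the non-pregnant library. These intervals cover counting error only. With 2 libraries against 2 or against 1, an exact two-sided permutation test cannot go below p = 0.333, so the groups were not tested.

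By role, the trypsinogens Prss2 and Try4 were detected in postpartum and non-pregnant enzyme-led cells and not in the pregnant ones. Prss2, the anionic trypsinogen, had 18 and 19 UMIs in the enzyme-led cells of postpartum libraries 1 and 2, 0 in those of pregnant library 2 and 78 in the non-pregnant cell. As shares of the enzyme UMIs these were 7.56%, 5.01%, 0% and 12.7%. Try4, another trypsin, had 12 and 25 UMIs in the postpartum libraries, 0 in pregnant library 2 and 18 in the non-pregnant cell. Both trypsin genes were therefore detected in all 5 enzyme-led cells outside pregnant library 2 and in neither cell of that library, whose enzyme-led cells gave 210 enzyme UMIs in all.

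The chymotrypsinogen gene Ctrb1 led the non-pregnant cell. It had 25 and 44 UMIs in the enzyme-led cells of postpartum libraries 1 and 2, 39 in pregnant library 2 and 255 in the non-pregnant cell. Ctrb1 was detected in all 7 cells. It made up 10.5% and 11.6% of the enzyme UMIs in the postpartum libraries, 18.6% in pregnant library 2 and 41.7% in the non-pregnant cell.

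Among the elastases, Cela2a and Cela1 changed places between libraries. Cela2a, a chymotrypsin-like elastase, had 81 and 89 UMIs in the enzyme-led cells of postpartum libraries 1 and 2, 19 in pregnant library 2 and 8 in the non-pregnant cell. It was the leading gene in the postpartum libraries at 34.0% (95% exact Clopper-Pearson interval 28.0 to 40.4) and 23.5% (19.3 to 28.1) of enzyme UMIs, against 9.05% (5.54 to 13.8) in pregnant library 2 and 1.31% (0.566 to 2.56) in the non-pregnant cell. The postpartum intervals did not overlap the others, but they cover counting error within 7 cells and not the spread between animals. Ctrc, which shares end windows with Cela2a, was a separate feature in the non-pregnant library only, with 1 UMI. Whether this affects the Cela2a counts was not tested. Cela1, another elastase, had 13 and 37 UMIs in the postpartum libraries, 10 in pregnant library 2 and 144 in the non-pregnant cell, where it made up 23.5%. Cela3b, the third elastase, had 7 and 23 UMIs in the postpartum libraries, 1 in pregnant library 2 and 41 in the non-pregnant cell.

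The carboxypeptidases trim amino acids from the ends of peptides, and both made up their smallest share in the non-pregnant cell. Cpa1 had 29 and 30 UMIs in the enzyme-led cells of postpartum libraries 1 and 2, 22 in pregnant library 2 and 21 in the non-pregnant cell. As shares of the enzyme UMIs these were 12.2%, 7.92%, 10.5% and 3.43%, and Cpa1 was detected in all 7 cells. Cpb1, which removes basic residues, had 12 and 10 UMIs in the postpartum libraries, 44 in pregnant library 2 and 13 in the non-pregnant cell, or 5.04%, 2.64%, 20.95% and 2.12%. All 44 lay in 1 of the 2 cells of pregnant library 2.

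Fat and starch digestion were represented by Pnlip and Amy2a5. Pnlip, the lipase that splits dietary triglycerides, had 15 and 47 UMIs in the enzyme-led cells of postpartum libraries 1 and 2, 12 in pregnant library 2 and 34 in the non-pregnant cell. Amy2a5, a pancreatic amylase, had 26 and 55 UMIs in the postpartum libraries, 63 in pregnant library 2 and 0 in the non-pregnant cell. The non-pregnant table lists a separate Amy1 feature that the other tables lack, and Amy1 had 244 UMIs in that cell (13.4% of it). Amylase copies therefore cannot be compared between the non-pregnant library and the rest. With Amy1 added, the enzymes made up 47.0% of the non-pregnant cell.

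**Figure D2:**
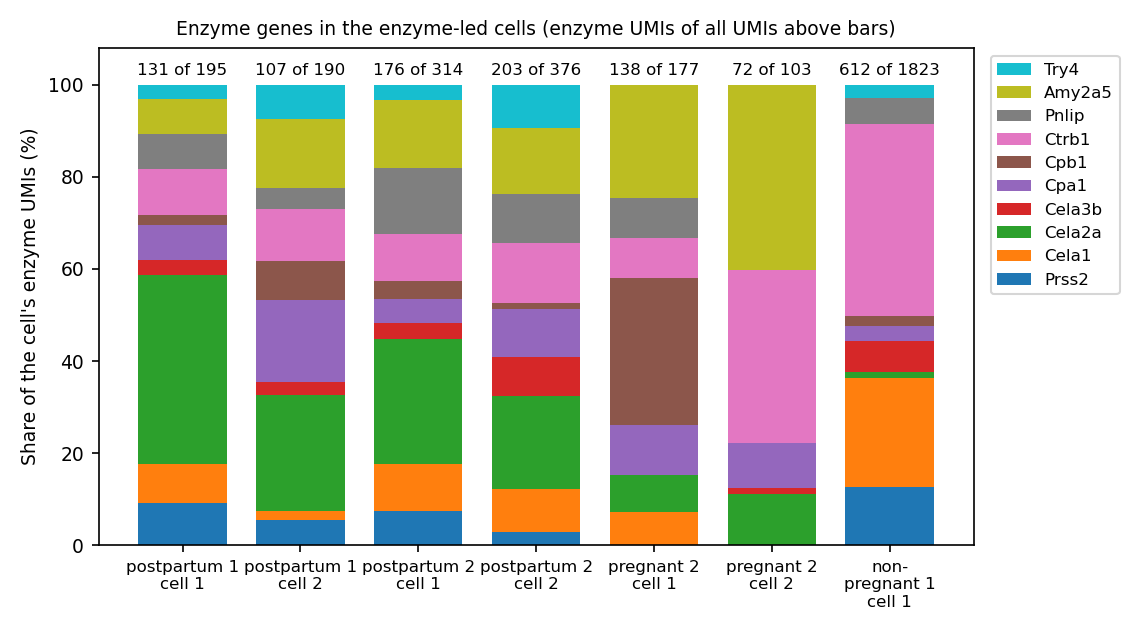
Each bar is 1 enzyme-led cell, split by the share (percent) of its enzyme UMIs that each of the 10 genes gave, with enzyme UMIs of all UMIs printed above. Cela2a is the widest band in each of the 4 postpartum cells, Amy2a5 is prominent in the 2 pregnant cells, and Ctrb1 and Cela1 fill most of the non-pregnant cell, which has no Amy2a5.

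By Pearson's r, the mixture of the 10 genes correlated within the postpartum pair and hardly across groups. As a description over 10 genes, Pearson's r of the shares was 0.851 between the enzyme-led cells of postpartum libraries 1 and 2. It was 0.155 and 0.223 between these and pregnant library 2, and -0.161 and -0.0428 between these and the non-pregnant cell. Between pregnant library 2 and the non-pregnant cell it was 0.0109. Spearman's rank correlation was 0.669 within the postpartum pair, and 0.436 and 0.359 between postpartum libraries 1 and 2 and pregnant library 2. With the non-pregnant cell it was -0.255 and -0.248 for the postpartum libraries and -0.407 for pregnant library 2. Each point is a pool of 1 or 2 cells from 1 library, counted against the same feature list in the pregnant and postpartum tables and a longer one in the non-pregnant table.

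Enzyme genes outside the 10 were also found in the enzyme-led cells, which bears on what these cells are without using the genes that chose them. Of 37 listed acinar enzymes and secreted proteins, 7 were in all tables: Cel (a bile-salt-activated lipase), Pnliprp1, Ctrl, Rnase1, Try5, 2210010C04Rik (a trypsinogen) and Reg1. In postpartum libraries 1 and 2, 6 and 7 of the 7 were detected in enzyme-led cells, with 65 UMIs (16.9%) and 128 UMIs (18.6%). In pregnant library 2, 3 of 7 were detected with 10 UMIs (3.57%), and in the non-pregnant cell 7 of 7 with 154 UMIs (8.45%). The same 7 genes made up between 0.000868% and 0.0132% of hormone-led cells.

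Markers of other cell types were few in the enzyme-led cells of the pregnant and postpartum libraries, while the non-pregnant cell also held ductal and beta cell genes. None of 7 endothelial, 4 macrophage and 2 mesenchymal genes was detected in any of the 7 cells. A count of 0 allows a gene up to 7792 and 4348 CPM in the enzyme-led cells of postpartum libraries 1 and 2, 10714 CPM in those of pregnant library 2 and 1646 CPM in the non-pregnant cell. Of 8 ductal genes none was detected in the pregnant and postpartum cells. In the non-pregnant cell 3 were, with 47 UMIs (2.58%), against 0.138% in the hormone-led cells of that library. Clu, a secreted chaperone, gave 37 of them, or 20296 CPM in the enzyme-led cell against 179 CPM in the hormone-led cells, and the keratin genes Krt8 and Krt18 gave 8 and 2. The 12 beta cell genes, which include the insulin genes used in the classes, gave 1 and 8 UMIs (0.260% and 1.16%) in postpartum libraries 1 and 2, 1 UMI (0.357%) in pregnant library 2 and 34 UMIs (1.87%) in the non-pregnant cell. Alpha, delta and gamma cell genes gave between 0 and 2 UMIs per list and library. The part of other cells in the non-pregnant cell was not tested.

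The enzyme-led cells of postpartum library 2 illustrate the single genes. There 2210010C04Rik had 49 UMIs, Ctrl 22, Cel 18, Try5 14, Reg1 10, Rnase1 10 and Pnliprp1 5. The non-pregnant cell had 43 UMIs of 2210010C04Rik, 34 of Reg1, 23 of Pnliprp1, 20 of Try5, 18 of Cel, 15 of Ctrl and 1 of Rnase1. Transcription factors of acinar cells were not seen at this depth. Of Bhlha15, Gata6 and Xbp1, the 3 listed regulators in all tables, the enzyme-led cells held 1 Xbp1 UMI in the non-pregnant cell and nothing else.

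Genes most like the enzymes across cells were sought by the mean over libraries of Pearson's r between the square roots of the shares. Among 1459 genes with at least 10 UMIs in at least 4 libraries, Insig2, which encodes a regulator of sterol synthesis, had a mean of 0.0510, Krt8, a keratin gene, 0.0491, and Map1b, which encodes a microtubule-associated protein, 0.0486, all of them weak. Enzyme genes outside the 10 were too sparse for that minimum. Chosen after their values were seen, Cel had r of 0.954 and 0.921 in postpartum libraries 1 and 2, -0.00235 and 0.723 in pregnant libraries 1 and 2 and 0.800 in the non-pregnant library, over 557, 1126, 1993, 164 and 847 cells. Reg1, a secreted acinar protein, had r of 0.987 and 0.901 in the postpartum libraries and 0.776 in the non-pregnant one. These values rest on the few enzyme-led cells of each library, and in pregnant library 1, with no such cell and 1 Cel UMI in all, no relation could have been seen.

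Hormone-led cells carried a low level of the enzymes in every library. The origin of these UMIs was not tested. Of 4655 hormone-led cells, 260 held at least 1 enzyme UMI, 465 UMIs in all. Their summed level was 54.2 CPM (counts per 1000000, here UMIs per 1000000 UMIs of those cells; 95% exact Poisson interval 23.4 to 107, from 8 UMIs) and 103 (81.4 to 128, 80 UMIs) in postpartum libraries 1 and 2. It was 18.9 (12.1 to 28.2, 24 UMIs) and 65.9 (1.67 to 367, 1 UMI) in pregnant libraries 1 and 2, and 138 (124 to 153, 352 UMIs) in the non-pregnant library. Postpartum library 2 without its 2 insulin-led cells above 2% stood at 54.0 (38.9 to 72.9, 42 UMIs), close to postpartum library 1. Pregnant library 1, which had no enzyme-led cell, was the lowest by point value and the non-pregnant library the highest, and the intervals cover counting error only. The order at the top turned with the measure: over non-hormone UMIs postpartum library 2 stood at 314 and the non-pregnant library at 268, and as a mean over cells they stood at 149 and 133.

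By hormone class, the point values of the non-pregnant library were the highest in insulin-led and in glucagon-led cells. With every cell kept, only the intervals of pregnant library 1 lay apart from those of the non-pregnant library. Insulin-led cells had 54.9 and 112 CPM in postpartum libraries 1 and 2, 15.7 and 84.0 in pregnant libraries 1 and 2 and 130 in the non-pregnant library. The intervals of postpartum libraries 1 (20.2 to 120) and 2 (87.6 to 142) and of pregnant library 2 (2.13 to 468) overlapped the non-pregnant one (116 to 147). That of pregnant library 1 (9.29 to 24.8) did not. In postpartum library 2, 28 and 10 of the 70 enzyme UMIs came from the 2 insulin-led cells above 2%. Without them all hormone-led cells of that library stood at 54.0 CPM (38.9 to 72.9). An interval without them was not computed for insulin-led cells alone. Glucagon-led cells had 60.6 and 64.1 in the postpartum libraries and 166 in the non-pregnant one, where 19 of 36 UMIs lay in 1 cell. In pregnant library 1, glucagon-led cells had 0 enzyme UMIs of 74108, which allows up to 40.5 CPM, and in pregnant library 2 they had 0 of 2335, which allows up to 1285 CPM. Somatostatin-led and polypeptide-led cells together had 136 CPM in pregnant library 1 (6 UMIs) and 182 in the non-pregnant library (37 UMIs), beside 64.2 in postpartum library 2 (2 UMIs). They had 0 UMIs of 5522 in postpartum library 1 and 0 of 934 in pregnant library 2, which allow up to 543 and 3212 CPM.

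**Figure D3:**
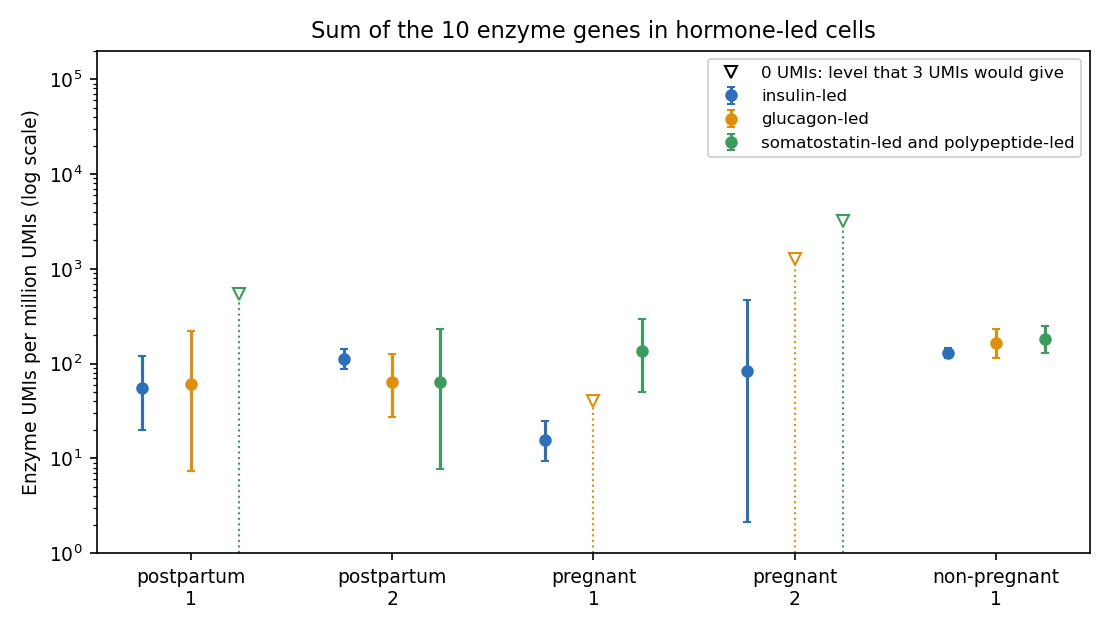
Sum of the 10 enzyme genes in hormone-led cells, in CPM (log scale), by library and class; points are levels with 95% exact Poisson intervals and open triangles mark classes with 0 UMIs at the level that 3 UMIs would give. In the non-pregnant library all 3 classes lie between 130 and 182 CPM, while in pregnant library 1 insulin-led cells lie at 15.7.

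The share of hormone-led cells with any enzyme UMI was highest in the deepest library. It was 1.09% and 3.75% in postpartum libraries 1 and 2 (median 237 and 578 UMIs per cell), 1.16% and 0.654% in pregnant libraries 1 and 2 (540 and 89), and 22.2% in the non-pregnant library (2553.5). Thinned to 200 UMIs per cell, the shares were 0.552% and 1.61% in the postpartum libraries, 0.403% and 0% in the pregnant libraries and 2.25% in the non-pregnant library. Only 4 hormone-led cells of pregnant library 2 reached 200 UMIs.

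Of the hormone-led cells under 2% that held an enzyme UMI, most held exactly 1 in each library. Cells with exactly 1 enzyme UMI numbered 5 and 38 in postpartum libraries 1 and 2, 22 and 1 in pregnant libraries 1 and 2 and 110 in the non-pregnant library. In the non-pregnant library the larger part of the 352 UMIs still lay in cells with more than 1, of which 68 held 2 to 4 and 10 held 5 or more. Cells with 2 or more different enzyme genes numbered 0 in each pregnant and postpartum library and 44 in the non-pregnant one, whose cells were the deepest. The largest was a non-pregnant glucagon-led cell with 19 enzyme UMIs of 3816 (0.498%) from 5 genes, led by Ctrb1 with 6 and Cpb1 with 5.

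Gene by gene, the hormone-led cells of the 2 sparsest libraries held few UMIs. In postpartum library 1 they held 4 of Amy2a5, 2 of Ctrb1, 1 of Cela2a and 1 of Cpa1, and in pregnant library 2 only 1 of Amy2a5. Postpartum library 2 had UMIs of all 10 genes in hormone-led cells, led by Cela1 with 21 and Amy2a5 with 12. In pregnant library 1, Cela1 gave 18 of the 24 UMIs, Amy2a5 and Cpa1 gave 2 each, and Cela2a and Cpb1 gave 1 each. The non-pregnant hormone-led cells held 112 of Ctrb1, 96 of Cela1, 49 of Prss2, 24 of Cela3b and 20 of Cpa1, and between 3 and 13 of each of the other 5. In postpartum library 2, 11 of the 21 Cela1 UMIs came from 1 insulin-led cell above 2%, and without the 2 cells above 2% Cela1 and Amy2a5 had 10 UMIs each. Cela1 was the most frequent enzyme UMI of hormone-led cells in pregnant library 1, and Ctrb1 in the non-pregnant library.

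In the non-pregnant library the mixture in insulin-led cells was close to that of the enzyme-led cell, and in the other classes less so. Over the 10 genes, r of the shares between the enzyme-led cell and the insulin-led cells was 0.986, with Ctrb1 at 101 UMIs (36.2%), Cela1 at 66 (23.7%) and Prss2 at 42 (15.1%) in the insulin-led cells. The r was 0.684 with glucagon-led cells and 0.399 with somatostatin-led and polypeptide-led cells. In postpartum library 2, r between the enzyme-led cells and the hormone-led cells under 2% was 0.202, from only 42 UMIs. In the non-pregnant library the 2 mixtures share 1 library and 1 table.

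Cela1 made up more of the enzyme UMIs in somatostatin-led than in insulin-led cells, and it is described by class because it stood out among the 10 genes, so the intervals are no test. In the non-pregnant library the 39 somatostatin-led cells held 19 Cela1 UMIs and 2 of the other 9 genes, so that Cela1 stood at 189 CPM (114 to 295) and the other 9 together at 19.9 (2.41 to 71.9). In the 679 insulin-led cells of the same library, 66 Cela1 UMIs stood beside 213 of the other 9, which is 30.9 CPM (23.9 to 39.3) beside 99.6 (86.7 to 114). The Poisson intervals of Cela1 in the 2 classes did not overlap, but they cover counting error within 1 library, and over libraries the difference was not called (limma adjusted p = 0.387). The Cela1 UMIs were spread over 10 of 39 somatostatin-led cells (25.6%) and 50 of 679 insulin-led cells (7.36%). Cela1 thus made up 90.5% (exact binomial interval 69.6 to 98.8) of the enzyme UMIs of somatostatin-led cells and 23.7% (18.8 to 29.1) of those of insulin-led cells. The most in 1 somatostatin-led cell was 6, and 13 remained without that cell. Median depth was 2169 UMIs in the somatostatin-led cells and 2654 in the insulin-led cells.

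The same direction was seen in pregnant library 1 and could not be seen in the others. There 36 somatostatin-led cells held 4 Cela1 UMIs and 0 of the other 9 genes, or 190 CPM (51.7 to 486), in 3 cells (8.33%). The 1773 insulin-led cells held 13 Cela1 UMIs and 5 of the other 9, or 11.3 CPM (6.03 to 19.4), in 0.733% of cells, and median depths were 527 and 547 UMIs. As a share of the enzyme UMIs, Cela1 made up 100% (39.8 to 100) in the somatostatin-led cells. In the insulin-led cells it made up 72.2% (46.5 to 90.3), and these intervals overlapped. Both postpartum libraries had 0 Cela1 UMIs in somatostatin-led cells, of which there were 15 and 25, and in library 2 a count of 0 allows up to 208 CPM, above the non-pregnant value. The 18 Cela1 UMIs of insulin-led cells in postpartum library 2 included 11 from 1 cell, one of the 2 above 2%.

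**Figure D4:**
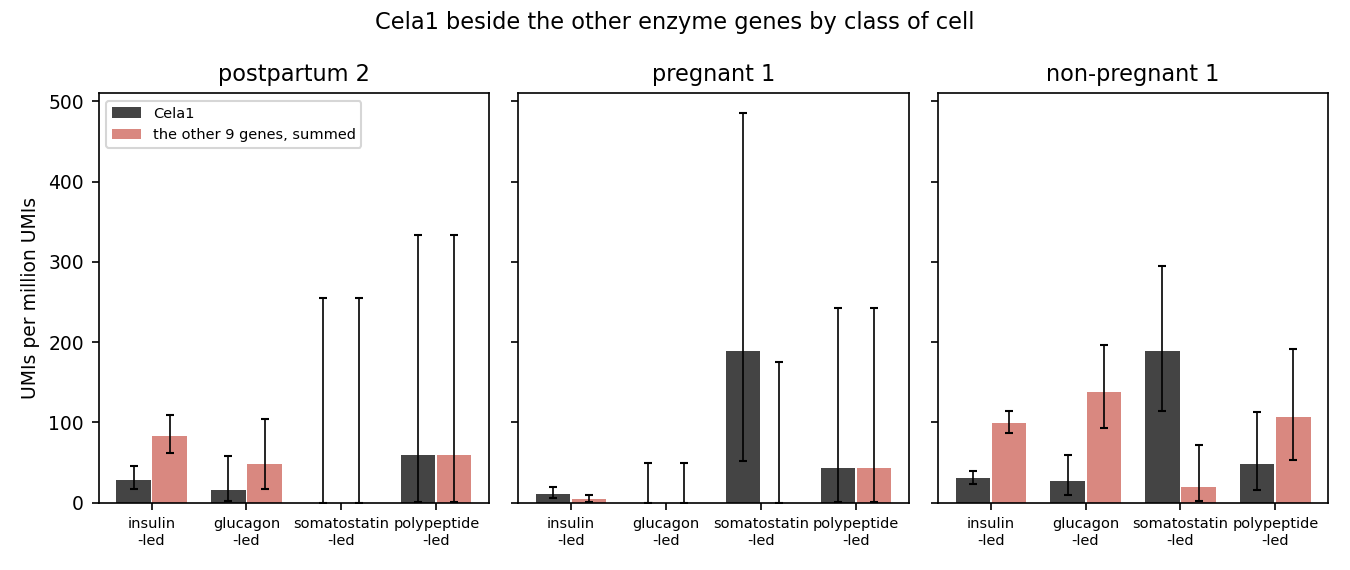
Cela1 (dark bars) and the other 9 enzyme genes summed (light bars) in CPM, by class of hormone-led cell in 3 libraries, with 95% exact Poisson intervals. Cela1 stands at 189 and 190 CPM in somatostatin-led cells of the non-pregnant library and pregnant library 1, above the other 9 genes. In insulin-led cells the other 9 genes are the higher in postpartum library 2 and the non-pregnant library. In those of pregnant library 1 Cela1 is the higher (11.3 against 4.35 CPM).

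Classes were compared over libraries with limma, with library as a block, on log2(CPM + 100). Of 2245 genes, 0.98% were called at an adjusted p under 0.05 for glucagon-led minus insulin-led cells, 1.51% for somatostatin-led minus insulin-led and 0.802% for polypeptide-led minus insulin-led. None of the 10 enzyme genes passed the filter of a mean of 50 CPM, so none was tested there. With no filter, limma called 0.423%, 0.739% and 0.498% of 6627 genes in these comparisons and none of the 10 enzymes. Cela1 was 0.55 ± 0.27 higher (log2, SE) in somatostatin-led than in insulin-led cells over 4 libraries, with a limma adjusted p of 0.387. With edgeR and no filter, chosen after seeing the data, 3.74%, 2.19% and 1.69% of genes were called, again with no enzyme among them. The edgeR log2 fold change of Cela1 was 1.86 with an adjusted p of 0.131. Neither test called the Cela1 difference.

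Group differences were tested first over all cells, and no enzyme gene was called. Of 1936 genes that averaged 50 CPM or more, limma called 0% for postpartum minus non-pregnant, 0% for pregnant minus non-pregnant and 0% for postpartum minus pregnant. At an unadjusted p under 0.05 there were 47, 40 and 29 genes in these comparisons, edgeR called 1, 0 and 0, and DESeq2 called 16, 8 and 8. Of the 10 enzymes 7 passed the filter (Amy2a5, Cela1, Cela2a, Cpa1, Cpb1, Ctrb1 and Pnlip), Cpb1 and Pnlip only through pregnant library 2.

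The values per library spread widely. Cela2a had 552 and 124 CPM in postpartum libraries 1 and 2, 0.787 and 1165 in pregnant libraries 1 and 2 and 4.29 in the non-pregnant library. Amy2a5 had 202 and 85.7 in the postpartum libraries, 1.57 and 3925 in the pregnant libraries and 4.69 in the non-pregnant library. Ctrb1 had 182 and 62.7 in the postpartum libraries, 0 and 2392 in the pregnant libraries and 143 in the non-pregnant library. Pregnant library 2 was the highest and pregnant library 1 the lowest for each of these 3 genes, so the pregnant group spanned all other libraries. The tag counts of this method are not divided by transcript length. The log2 differences from non-pregnant in the postpartum group were 1.87 ± 1.37 for Cela2a, 1.18 ± 1.67 for Amy2a5 and -0.18 ± 1.53 for Ctrb1 (SE, limma adjusted p 1.00 for each).

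The other 7 enzymes had the same spread within the pregnant pair, apart from the trypsinogens. Cela1 had 87.5 and 74.2 CPM in postpartum libraries 1 and 2, 14.2 and 613 in pregnant libraries 1 and 2 and 93.7 in the non-pregnant library. Cela3b had 47.1 and 30.7 in the postpartum libraries, 0 and 61.3 in the pregnant libraries and 25.4 in the non-pregnant one. Both elastases thus lay within a narrow range outside the pregnant pair, unlike Cela2a. Cpa1 had 202 and 49.9 CPM in the postpartum libraries, 1.57 and 1349 in the pregnant libraries and 16.0 in the non-pregnant library. Cpb1 had 80.8 and 16.6, 0.787 and 2698, and 10.2 CPM in the same order of libraries, and Pnlip had 101.0 and 69.1, 0 and 736, and 17.2 CPM. In these 3 genes both postpartum libraries exceeded the non-pregnant one, and pregnant library 2 exceeded all. Prss2 had 121 and 35.8 CPM in the postpartum libraries, 0 in both pregnant libraries and 49.6 in the non-pregnant library. Try4 had 80.8 and 38.4 CPM in the postpartum libraries, 0 in both pregnant libraries and 12.1 in the non-pregnant library. A count of 0 allows up to 2.36 CPM in pregnant library 1 and 184 CPM in pregnant library 2, and every value of both trypsinogens in the other libraries lies under 184 CPM. Over all cells, the depth of pregnant library 2 therefore cannot show whether it was lower in either gene. Within its 2 enzyme-led cells each was 0 of 210 enzyme UMIs, with an exact binomial interval up to 1.74%. The postpartum intervals began at 4.54% and 3.04% for Prss2 and at 2.63% and 4.31% for Try4 in libraries 1 and 2. These intervals cover counting error within a few cells only. That of pregnant library 2 takes each count as 1 molecule, which is not known for this library.

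Results of these tests turned on single pregnant libraries. Without pregnant library 2, limma tested 2032 genes, of which 6 were enzymes. Cela2a, Amy2a5 and Cpa1 passed the filter there only through the postpartum libraries, where they were high, so their differences in this fit lend no support. For postpartum minus non-pregnant those differences (log2, SE) were 1.87 ± 0.29 for Cela2a, 1.18 ± 0.23 for Amy2a5 and 0.87 ± 0.22 for Cpa1. Then 4.33% were called for pregnant minus non-pregnant, with Ctrb1 lower, and 8.12% for postpartum minus pregnant, with 5 enzymes higher (Amy2a5, Cela2a, Cpa1, Ctrb1 and Prss2). In that fit the spread came from the 2 postpartum libraries alone, and the lone pregnant and non-pregnant libraries were assumed to vary like them. Without pregnant library 1, 9.97%, 77.8% and 76.8% of 1795 genes were called in the order postpartum minus non-pregnant, pregnant minus non-pregnant and postpartum minus pregnant, and 0, 7 and 8 of 8 tested enzymes. The same limit holds there, 210 of the 211 enzyme UMIs of pregnant library 2 lay in 2 cells, and Cpb1 passed the filter only through that library. The call of Prss2 among the 8 rests on a count of 0 in pregnant library 2, whose depth over all cells cannot show such a difference.

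The tests over all cells rested on the enzyme-led cells. With the 7 enzyme-led cells left out, an alternative chosen after seeing the data, none of the 10 genes passed the filter.

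Within insulin-led and glucagon-led cells no enzyme passed the filter either. In insulin-led cells limma called 0.215%, 0% and 0.0538% of 1859 genes for postpartum minus non-pregnant, pregnant minus non-pregnant and postpartum minus pregnant. In glucagon-led cells it called 0.116%, 0.058% and 0.058% of 1725 genes. With no filter, none of the enzymes was called in insulin-led cells (0.0453%, 0.0453% and 0.0302% of genes called). In glucagon-led cells with no filter, 2.75% of 6572 genes were called lower in both comparisons with the non-pregnant library and 0% in the third. Among them were Cpa1, with 7 UMIs in the non-pregnant glucagon-led cells, and Cpb1 and Prss2, with 5 each (limma adjusted p = 0.0227 for each). All 4 pregnant and postpartum libraries had 0 UMIs of these 3 genes in glucagon-led cells, so that the libraries showed no spread among replicates and the fitted log2 differences of -0.40 ± 0.04 for Cpa1 and -0.30 ± 0.03 for the other pair (SE) depend on the added 100 CPM. All 5 Cpb1 UMIs and 4 of the 7 Cpa1 UMIs came from 1 cell, and edgeR with no filter called 0 genes.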

How the data were processed

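Per the submitters' processing notes, Partek 8.0, Bowtie 1.1.1 and the build GRCm38 (mm10) were used, while the step that counted reads per gene is not described. The authors deposited the non-pregnant table as a linear signal scaled per cell, and the other 4 tables as log2 values of CPM plus 1. Whole UMIs were recovered from the steps between low values, within 0.1 of a whole number (largest deviation 0.0251). In pregnant library 2 the smallest step was over 1 UMI in 9 cells. Genes were matched by symbol (6543) or synonym (84), and 53 of the shorter tables' features were unmatched. All cells were kept.

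Sums per library and class (classes of at least 10 cells) were tested with limma 3.58.1 on log2(CPM + 100), over genes that averaged 50 CPM or more, two-sided with Benjamini-Hochberg adjustment under 0.05. All groups shared 1 estimate of the spread. edgeR 4.0.16 and DESeq2 1.42.0 (R 4.3.3) on recovered counts, other constants, filters, denominators, and leaving out libraries were alternatives. Since the tables hold normalized values, limma was the main test. Scripts were tested on simulated data. Scrublet ran in scanpy 1.11.5. A planned fit of cells at 2% or more against hormone-led cells was not run, because no library had 5 such cells.

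Samples were grouped by their labels. The 10 genes and the marker lists were chosen with earlier results of these data known. The text names the 10 genes, listed acinar genes present in all tables, the genes most like the members, and other genes only where a result turns on them; the naming rule's other genes, called between groups or hormone classes, are not described, and some genes that the rule names are not reported here. The postpartum and pregnant libraries share replicate numbers, and deviations from group means could not decide whether these numbers pair them.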

Additional observations from a re-analysis of the deposited data

Results flagged for a closer look

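The non-pregnant table lists 32 of the 44 listed acinar genes that the other tables lack and that entered no comparison. Those named here had more than 3 UMIs, the limit that a count of 0 allows. Amy1, an amylase gene, had 338 UMIs, of which 244 lay in the enzyme-led cell and 94 in hormone-led cells. Klk1, a tissue kallikrein, had 55 UMIs, and Sycn, a zymogen granule protein, had 51. Clps, the cofactor of pancreatic lipase, had 21, and Reg2, a secreted acinar protein, had 17. Reg3b had 15 UMIs, Zg16 had 10, Gp2 had 8, Tff2 had 7 and Reg3g had 5. Hormone-led cells held 44 of the Klk1, 14 of the Clps and 13 of the Reg3b UMIs. The enzyme-led cell held 39 of the Sycn and 15 of the Reg2 UMIs. The transcription factor genes Rbpjl, Gata4 and Nr5a2 had 8, 7 and 7 UMIs, all in hormone-led cells and 0 in the enzyme-led cell. In all, listed acinar genes outside the shared features gave 345 UMIs (18.9%) of the enzyme-led non-pregnant cell.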

How the results depend on the processing

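Depth limited most values: all enzyme-led cells of the postpartum libraries had under 500 UMIs, so with only cells of at least 500 UMIs the share at 2% or more was 0 in both. Of 230 values under alternatives, 168 kept their direction and side of the threshold, or their size. In hormone-led cells the summed level in postpartum library 2 was 149 CPM as a mean over cells and 54.0 without cells at 2% or more. Over non-hormone UMIs the levels were 147 and 314 in postpartum libraries 1 and 2, 41.1 in pregnant library 1 and 268 in the non-pregnant library, so that under this measure and the mean over cells postpartum library 2 was the highest. Thinned to 200 UMIs, shares of hormone-led cells with an enzyme UMI were 1.61% in postpartum library 2, 0.403% and 0% in the pregnant libraries and 2.25% in the non-pregnant one. Thinned to 80, they were 0.181% and 0.983% in the postpartum libraries, 0.101% in pregnant library 1 and 1.06% in the non-pregnant library. The order of the libraries rests on few UMIs at these depths.

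Calls summed over the 3 group comparisons were 5 in insulin-led, 4 in glucagon-led and 0 in all cells. For insulin-led cells they were 2 with 500 added, 8 with no filter, 0 with a filter of 100, 1 with edgeR, 15 with DESeq2, 1 with edgeR and no filter (chosen after seeing the data), and 1 to 2887 when leaving out a library. For glucagon-led cells they were 362 with no filter (6 of them enzymes), 2 with a filter of 100, 2 with TMM factors, 0 with edgeR, 0 with DESeq2, 0 with edgeR and no filter (also chosen after), and 1 to 1165 when leaving out a library. For all cells they were 1 with 20 added, 17 with no filter, 3 with the mean over cells, 8 over non-hormone UMIs, 3 with TMM factors, 1 with edgeR, 32 with DESeq2, and 0 to 2954 when leaving out a library; enzymes called ranged from 0 to 15. The highest counts came without pregnant library 1, and 619 (9 enzymes) without pregnant library 2; the cause was not tested. Between hormone classes, 74 calls became 254 with edgeR, 226 with DESeq2, 505 with edgeR and no filter (chosen after), and 42 to 99 when leaving out a library.

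Ctrb1, postpartum minus non-pregnant over all cells (-0.18), changed sign to 0.13 over non-hormone UMIs, 0.13 with TMM factors, 0.29 with edgeR, 0.27 with DESeq2 and 0.21 without postpartum library 2, never called. Leaving out libraries, it ranged from -0.58 to 0.21, while Cela2a and Amy2a5 kept a positive sign. Cela2a and Amy2a5 were called without pregnant library 2, where both passed the filter only through the postpartum libraries.

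With the replicate number as a block, postpartum minus pregnant had 1 call in insulin-led, 1 in glucagon-led and 0 in all cells, as without it. Deviations of same-numbered libraries had r = 0.00863 over 1936 genes, so the libraries share only a number.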
